A study of Mus musculus with 6 samples.

Results

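The genes described here move, store or bind iron and zinc: Tfrc, Slc11a1, Slc11a2, Slc40a1, Slc39a14, Fth1, Ftl1, Mt1, Mt2 and Lcn2. They are 10 of the 24411 genes in the count tables, chosen by symbol for their function, and 9 of them had enough reads to be tested. Expression was measured by strand-specific RNA-seq, after depletion of ribosomal RNA, in primary microglia, the resident macrophages of the brain. The cells came from pooled brains of 12 ICR mice aged 3 days, were shaken off a mixed glial culture, and were more than 92% positive for CD11b, per the labels' protocols. In 3 libraries the microglia had been given FTY720, the sphingosine analogue also known as fingolimod, at 1 µM together with LPS, the bacterial lipopolysaccharide sensed by Toll-like receptor 4, at 10 ng/ml for 4 h. In the other 3 libraries they received FTY720 alone at 1 µM for 4 h. Both groups carried FTY720, and no untreated or LPS-only cells were analysed here, so the comparison is of LPS added to FTY720 against FTY720 alone. The replicates are described as independent RNA samples, and whether they came from separate pools of mice or separate cultures is not given. The p-values hence cover only the variation among these samples, which may be technical. Gene reads numbered 2431775 to 2800738 with LPS and 2729532 to 3454647 with FTY720 alone. Of these, rRNA-like genes took 38.2% to 44.9% with LPS and 28.8% to 59% with FTY720 alone. FTY720 replicate 3 was highest on the second principal component, at 22.4, and the other libraries ran from -16 to 7.99.

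Cells take up transferrin-bound iron through the transferrin receptor, move it out of endosomes through divalent metal transporters, store it in ferritin and release it through ferroportin. Iron regulatory proteins adjust this system after transcription. They bind hairpins called iron-responsive elements (IREs) when iron is scarce, which blocks translation from an element in the 5′ UTR and stabilises the transcript from elements in the 3′ UTR. Metallothioneins bind zinc and copper, and their genes are transcribed in response to zinc. During inflammation, macrophages are known to hold iron back from microbes, in part by lowering ferroportin.

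IREs are sequences through which iron acts, after transcription, on the transcripts that carry them. They were looked for in all protein-coding transcripts of these genes (GENCODE M21, GRCm38). The pattern was a bulged C, 5 bases, the loop CAGTG followed by A, C or T, and 5 bases that pair with the first 5, G with T pairs allowed. Over all genes, with 1 principal coding transcript each, it occurred in 189 of 21870 (0.864%). Among the genes described here it occurred in transcripts of Tfrc, Slc40a1, Fth1 and Ftl1. The matches are printed as DNA from 5′ to 3′ on the strand of the gene, 29 bases each, with the loop of the hairpin in capitals.
Tfrc, 3′ UTR, chr16:32631219-32631247, plus strand: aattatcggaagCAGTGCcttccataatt
Tfrc, 3′ UTR, chr16:32631598-32631626, plus strand: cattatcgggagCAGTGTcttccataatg
Tfrc, 3′ UTR, chr16:32631663-32631691, plus strand: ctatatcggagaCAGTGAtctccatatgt
Tfrc, 3′ UTR, chr16:32631710-32631738, plus strand: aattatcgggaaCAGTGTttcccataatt
Slc40a1, 5′ UTR, chr1:45925465-45925493, minus strand: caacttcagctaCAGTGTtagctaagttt
Fth1, 5′ UTR, chr19:9982732-9982760, plus strand: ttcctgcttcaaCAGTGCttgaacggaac
Ftl1, 5′ UTR, chr7:45459779-45459807, minus strand: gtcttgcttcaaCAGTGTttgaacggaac

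The Fth1 and Ftl1 elements shared 26 of 29 bases. The Slc40a1 element shared 13 of 29 bases with either of them, and the 4 Tfrc elements shared 18 to 25 of 29 bases with each other. The pattern was not matched in any protein-coding transcript of the other 6 genes, which says only that these letters are not there. An element with another loop or an imperfectly paired stem would be missed, so those genes cannot be called free of IREs.

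Adding LPS to FTY720 raised the transcript of the transferrin receptor 2.86-fold and lowered that of the iron exporter ferroportin 3.84-fold. The light and heavy chains of ferritin, the lysosomal transporter Slc11a1 and the metallothionein Mt2 were 1.3-fold to 1.8-fold higher in the main analysis. Each of these 4 calls was lost with total library size as the only scaling, and both ferritin chains were lower once the trend with expression was removed. No change passed the test in Slc11a2, Slc39a14 or Mt1. Fewer cells of a type and less RNA per cell cannot be told apart in such bulk libraries. In all, 5 of the 9 tested genes were higher, 1 was lower and 3 were not called. Their median log2 fold change was 0.38, and that of all 10124 tested genes was -0.04. Among all tested genes 46% were called (adjusted p under 0.05, edgeR's quasi-likelihood test), 23.3% higher and 22.7% lower. A called gene was therefore common in this comparison, and the sizes of the changes below carry more than their number. Without FTY720 replicate 3, the library highest on the second principal component, the same 6 genes were called. The log2 fold change was 1.58 for Tfrc, -1.79 for Slc40a1, 0.86 for Ftl1, 0.35 for Fth1, 0.67 for Slc11a1 and 0.65 for Mt2 (adjusted p between 3.62e-17 and 0.0333, edgeR). Those not called were Slc11a2 at -0.16, Slc39a14 at -0.13 and Mt1 at 0.12.

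**Figure D1:**
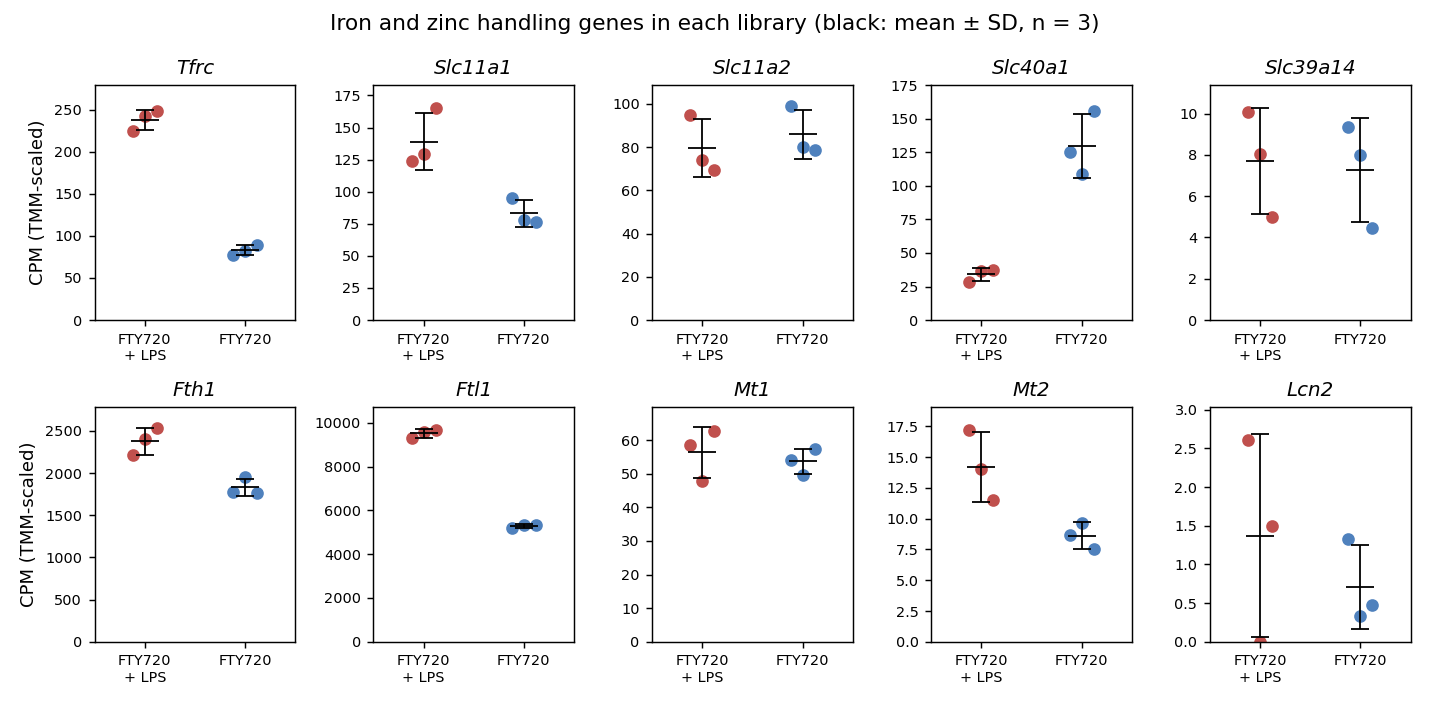
Expression of each gene in CPM (counts relative to the library's total, scaled with TMM factors; linear axes from 0, 1 scale per gene) in the 3 FTY720 + LPS libraries (red) and the 3 FTY720 libraries (blue); black marks are the mean ± SD. Tfrc lies between 225 and 248 CPM with LPS and between 77.4 and 89.7 CPM without, Slc40a1 between 28.7 and 37.5 CPM with LPS and between 109 and 156 CPM without, and the groups of Slc11a2, Slc39a14, Mt1 and Lcn2 overlap.

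The microglial label was checked with 12 markers, of which 10 were tested and 9 were called higher; their summed level was 3560 to 4100 CPM with LPS and 2320 to 2480 CPM with FTY720 alone. Markers of other brain cells were present at lower levels. Those of the oligodendrocyte lineage summed to 142 to 163 CPM with LPS and 268 to 293 CPM with FTY720 alone (5 of 6 tested lower), and those of neurons to 97.6 to 110 CPM with LPS and 180 to 241 CPM with FTY720 alone (3 of 3 lower). Astrocyte markers summed to 97.7 to 137 CPM with LPS and 83.8 to 104 CPM with FTY720 alone (2 of 6 tested higher, 1 lower), and fibroblast and mural markers to 25.8 to 45.6 CPM with LPS and 21.4 to 42.1 CPM with FTY720 alone (0 of 4 called). Neutrophil markers, with Ngp at 0, summed to 9.32 to 11 CPM with LPS and 2.67 to 5.65 CPM with FTY720 alone (0 of 1 called), and endothelial markers to 12.7 to 16.5 CPM with LPS and 5.01 to 9.35 CPM with FTY720 alone (1 of 1 higher). The part of these shifts in the changes of iron and zinc genes was not tested.

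Tfrc encodes the receptor that takes up transferrin-bound iron and lies on chromosome 16 (32608920 to 32632794, plus strand, GRCm38). Its level was 225, 242 and 248 CPM in the FTY720 + LPS libraries and 77.4, 82.1 and 89.7 CPM in the FTY720 libraries. Every library with LPS lay above every library without it, and the libraries within a group differed little. The means were 238 ± 12 CPM with LPS and 83.1 ± 6.19 CPM with FTY720 alone (SD, n = 3 each). This was a log2 fold change of 1.52 ± 0.11 (SE), with an adjusted p of 1.73e-10 by edgeR's quasi-likelihood test. It stayed between 1.10 and 1.59 in the 17 alternative analyses and passed the threshold in all of them. Of the 10124 tested genes, 441 had a higher log2 fold change than Tfrc.

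Slc11a1, or NRAMP1, carries divalent metal ions out of the lysosomes and phagosomes of macrophages (chromosome 1, 74375195 to 74386062, plus strand). It stood at 124, 129 and 165 CPM with LPS and at 95.4, 78.1 and 76 CPM with FTY720 alone. The groups did not overlap, though both were more spread out than for Tfrc. Their means were 139 ± 22.3 CPM with LPS and 83.2 ± 10.7 CPM with FTY720 alone (SD, n = 3 each), a log2 fold change of 0.74 ± 0.13 (adjusted p = 9.93e-05, edgeR). With total library size as the only scaling it was 0.41 (adjusted p = 0.265), the single alternative of 17 in which the call was lost.

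Slc11a2, or DMT1, its relative in the endosomes and plasma membrane of most cells, did not pass the test (chromosome 15, 100387898 to 100425072, minus strand). It had 94.7, 74 and 69.6 CPM with LPS and 99.1, 80.1 and 78.9 CPM with FTY720 alone, so that the groups overlapped. Its log2 fold change stood at -0.10 ± 0.14 (adjusted p = 0.566, edgeR). After removal of the trend with expression it was -0.36 (adjusted p = 0.0452), and it was 0.00 without FTY720 + LPS replicate 3 and 0.01 without FTY720 replicate 1. Slc11a2 overlaps Gm5475 on the opposite strand, and antisense reads made up 0.552% of its reads.

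Slc39a14, or ZIP14, imports zinc and iron not bound to transferrin (chromosome 14, 70303469 to 70351425, minus strand). It was sparse, with 27, 19 and 10 reads with LPS and 28, 24 and 19 reads with FTY720 alone. The levels were 10.1, 8.04 and 5.01 CPM with LPS and 9.34, 8.01 and 4.47 CPM with FTY720 alone, covering nearly the same range. The ratio of the summed reads, scaled for library size, was 1.15, with an exact 95% counting interval of 0.793 to 1.65. The log2 fold change was 0.16 ± 0.33 (adjusted p = 0.719, edgeR). A change inside that interval was not detectable at this depth. The interval leaves out variation between replicates, so changes somewhat outside it may also have been missed.

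Slc40a1 encodes ferroportin, the iron exporter of the plasma membrane (chromosome 1, 45908068 to 45926523, minus strand). It fell to 28.7, 36.4 and 37.5 CPM in the FTY720 + LPS libraries, against 125, 109 and 156 CPM in the FTY720 libraries. The lowest library without LPS was still far above the highest with it. Means were 34.2 ± 4.8 CPM with LPS and 130 ± 23.7 CPM with FTY720 alone (SD, n = 3 each). The log2 fold change was -1.94 ± 0.16 (adjusted p = 5.03e-10, edgeR), and it ranged from -2.30 to -1.79 over 17 alternatives, all past the threshold. A lower log2 fold change was found in 117 of the tested genes.

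Set against each other within a library, where scaling cancels, the uptake and export transcripts changed places. There were 7.83, 6.66 and 6.6 Tfrc reads per Slc40a1 read in the FTY720 + LPS libraries, against 0.617, 0.752 and 0.576 in the FTY720 libraries. Reads were not divided by transcript length here, so the ratio compares libraries, not the abundance of both genes. Per 1000 reads of Ftl1, Tfrc had 24.2, 25.3 and 25.6 reads with LPS and 14.9, 15.4 and 16.8 reads with FTY720 alone. Slc40a1 had 3.09, 3.8 and 3.88 reads per 1000 Ftl1 reads with LPS and 24.2, 20.4 and 29.1 with FTY720 alone. These ratios were chosen after the values had been seen and are given without a test.

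**Figure D2:**
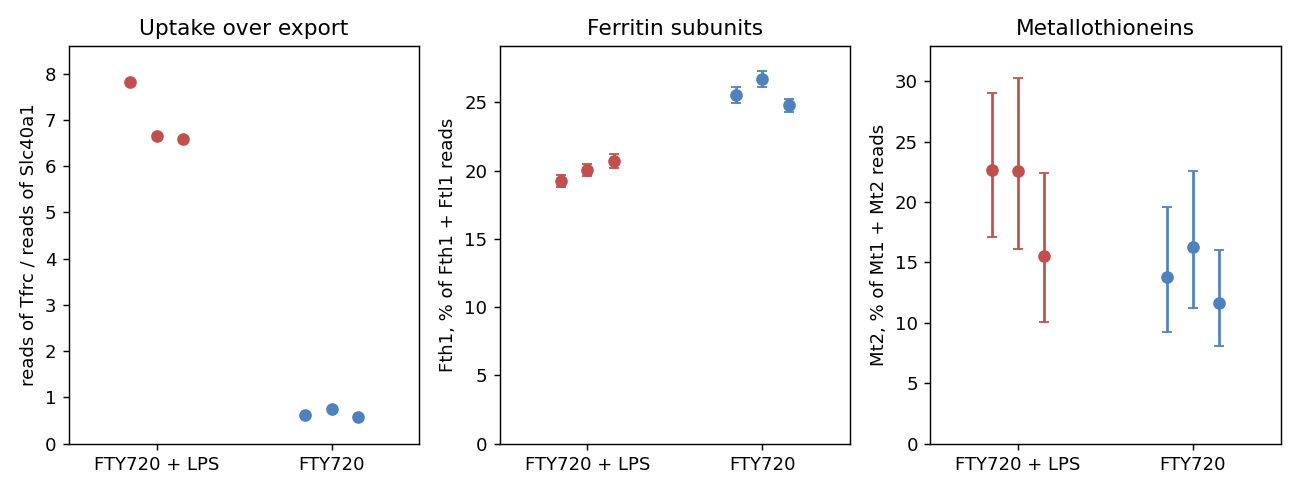
Read ratios within each library, 1 point per library, FTY720 + LPS in red on the left and FTY720 in blue on the right; bars are exact 95% binomial intervals for counting error, and all axes are linear from 0. Left, Tfrc reads per Slc40a1 read, 6.6 to 7.83 with LPS and 0.576 to 0.752 without; middle, Fth1 as a percent of the reads of both ferritin chains, 19.21% to 20.73% with LPS and 24.78% to 26.71% without; right, Mt2 as a percent of the reads of both metallothioneins, where the groups overlap.

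Ferritin is a shell of light and heavy chains around stored iron; the heavy chain oxidises iron on entry and the light chain favours its deposition. Ftl1, the light chain (chromosome 7, 45457944 to 45459884, minus strand), had 9310, 9570 and 9690 CPM with LPS and 5190, 5350 and 5350 CPM with FTY720 alone. The 2 groups were tight and far apart on this scale. Means were 9520 ± 194 CPM with LPS and 5290 ± 93.5 CPM with FTY720 alone (SD, n = 3 each). The log2 fold change of 0.85 ± 0.11 (adjusted p = 6.77e-07, edgeR) was lost with total library size alone (0.52, adjusted p = 0.175) and turned to -0.20 (adjusted p = 0.0442, limma) after removal of the trend with expression. As a share of all reads outside the rRNA-like genes, Ftl1 took 1.44% to 1.46% with LPS and 1.07% to 1.13% with FTY720 alone.

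Fth1, the heavy chain (chromosome 19, 9980598 to 9985098, plus strand), had 2210, 2400 and 2530 CPM with LPS and 1780, 1950 and 1760 CPM with FTY720 alone. The groups did not overlap, but the gap was smaller than for the light chain. The log2 fold change was 0.38 ± 0.10 (adjusted p = 0.00428, edgeR). It was not past the threshold with total library size alone (0.06, adjusted p = 0.893) or with length and GC trends removed (0.22, adjusted p = 0.0565), and it was -0.58 (adjusted p = 4.06e-05, limma) with the expression trend removed. With TMM factors, abundant transcripts as a class were higher with LPS: of the 269 tested genes with a mean log2 CPM of at least 8, 230 were called higher and 8 lower, and the median of their log2 fold changes was 0.73. Beside that median, the log2 fold change of Ftl1 was 0.85 and that of Fth1 was 0.38.

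The balance of the chains within a library does not depend on how libraries are scaled to each other. Fth1 made up 19.21%, 20.04% and 20.73% of the reads of both chains with LPS, against 25.55%, 26.71% and 24.78% with FTY720 alone. The means were 19.99% ± 0.762% with LPS and 25.68% ± 0.975% with FTY720 alone (SD, n = 3 each), a difference of -5.69 percentage points. The groups did not overlap and the exact 95% binomial intervals of single libraries lay between 18.77% and 21.24% with LPS and between 24.29% and 27.31% with FTY720 alone. An exact two-sided permutation test gave p = 0.1, the smallest value that 3 against 3 libraries allow. GENCODE M21 names 8 ferritin pseudogenes, none of which is in the count tables, and reads matching more than a single place were not counted, so the levels of both chains are uncertain to that extent.

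Of the metallothioneins, Mt2 passed the test and Mt1 did not. The genes are neighbours on chromosome 8, Mt2 at 94172664 to 94173568 and Mt1 at 94179082 to 94180327, both on the plus strand and 5513 bases apart. Mt1 had 58.6, 47.8 and 62.6 CPM with LPS and 54.1, 49.7 and 57.2 CPM with FTY720 alone, so that the FTY720 libraries lay within the range of the others. Its log2 fold change was 0.06 ± 0.14 (adjusted p = 0.741, edgeR), and its sign turned under 4 scalings (-0.27 to -0.07), none of them past the threshold.

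Mt2 was less abundant, with 46, 33 and 23 reads with LPS and 26, 29 and 32 reads with FTY720 alone. The levels were 17.2, 14 and 11.5 CPM with LPS and 8.68, 9.68 and 7.53 CPM with FTY720 alone, all higher with LPS. The log2 fold change was 0.75 ± 0.25 (adjusted p = 0.0165, edgeR), and the ratio of summed reads scaled for library size was 1.7 (exact 95% counting interval 1.27 to 2.3). The call was lost in 4 of 16 alternatives: with DESeq2 (0.77, adjusted p = 0.0907), total library size alone (0.45, adjusted p = 0.312), length and GC trends removed (0.53, adjusted p = 0.0735) and without FTY720 + LPS replicate 1 (0.61, adjusted p = 0.107). Mt2 took 22.66%, 22.6% and 15.54% of the reads of both metallothioneins with LPS and 13.83%, 16.29% and 11.64% with FTY720 alone. These shares overlapped between the groups (difference 6.35 percentage points, exact two-sided permutation p = 0.2), so a change in Mt2 apart from Mt1 was not shown.

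Lcn2, or lipocalin 2, binds bacterial siderophores and so keeps iron from microbes (chromosome 2, 32384633 to 32388252, minus strand). It had 7, 0 and 3 reads with LPS and 4, 1 and 2 reads with FTY720 alone, too few to pass the filter on low counts. The 0, in FTY720 + LPS replicate 2, is compatible with up to 3 reads, or 1.27 CPM in that library. The ratio of the summed reads, 10 with LPS and 7 with FTY720 alone, was 2.08 after scaling for library size, with an exact 95% counting interval of 0.714 to 6.43. Without the filter the log2 fold change was 0.98 ± 0.79 (adjusted p = 0.44, edgeR).

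**Figure D3:**
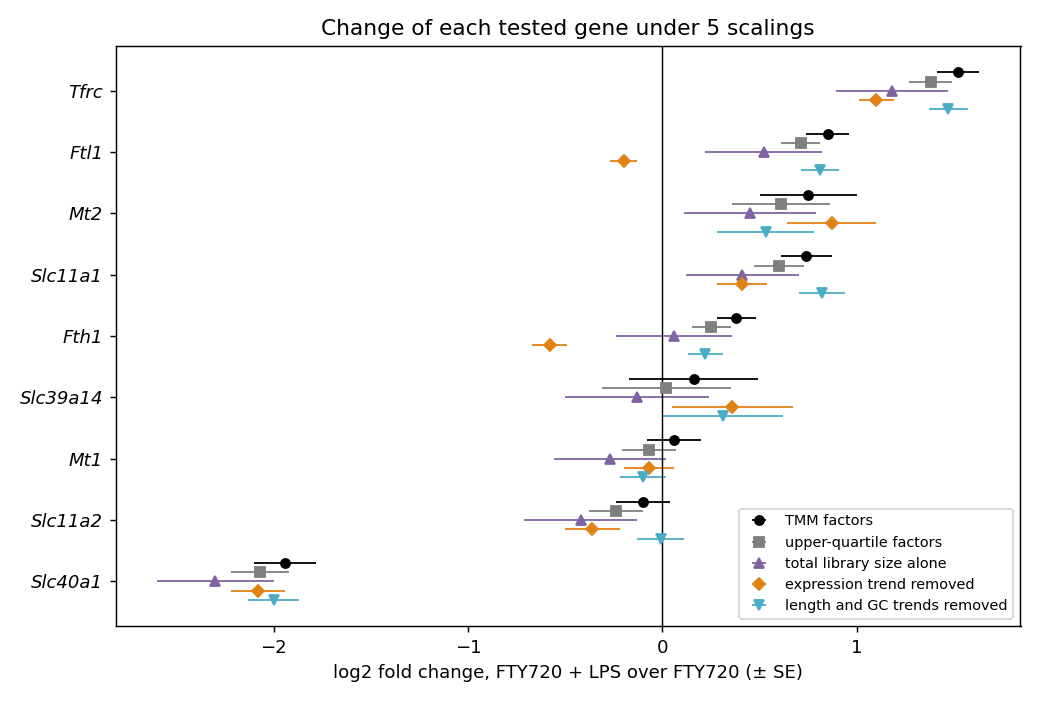
Log2 fold change (FTY720 + LPS over FTY720, ± SE) of the 9 tested genes under 5 scalings, with 1 symbol and colour per scaling. Slc40a1 lies near -2 and Tfrc between 1.10 and 1.52 under each scaling, while Ftl1 and Fth1 lie above 0 with TMM factors and below 0 once the trend with expression is removed.

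The ferritin genes moved most between scalings: with the expression trend removed, the log2 fold change of Ftl1 was -0.20 in place of 0.85 and that of Fth1 was -0.58 in place of 0.38. The median log2 fold change of all tested genes was -0.04 with TMM factors, -0.17 with upper-quartile factors and -0.35 with total library size alone. The changes of Tfrc and Slc40a1 were several times as large as these median shifts, while those of Fth1, Mt1, Slc11a2 and Slc39a14 were of a similar size or smaller. Of the 9 tested genes, 5 lay entirely higher and 1 entirely lower in the LPS libraries, where 54% of all tested genes did not overlap between the groups.

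Divided by transcript length, the levels spanned more than 3 orders of magnitude on a scale of CPM per kb. With LPS they ran from Ftl1 (9840 ± 200 CPM per kb) and Fth1 (2560 ± 173) through Mt1 (103 ± 13.9), Slc11a1 (60.1 ± 9.65) and Tfrc (48.7 ± 2.45) to Mt2 (27.8 ± 5.54), Slc11a2 (26.3 ± 4.44) and Slc40a1 (10.2 ± 1.42), with Slc39a14 (1.56 ± 0.517) and Lcn2 (1.5 ± 1.43) last (SD, n = 3). Mt2 and Slc11a2 differed by less than their SDs, as did Slc39a14 and Lcn2. With FTY720 alone the order was Ftl1 (5470 ± 96.6 CPM per kb), Fth1 (1970 ± 111), Mt1 (97.8 ± 6.83), Slc40a1 (38.6 ± 7.03), Slc11a1 (35.9 ± 4.6), Slc11a2 (28.4 ± 3.75), Tfrc (17 ± 1.27), Mt2 (16.9 ± 2.1), Slc39a14 (1.48 ± 0.511) and Lcn2 (0.779 ± 0.593). There, Slc40a1 and Slc11a1 were not apart beyond their SDs, nor were Tfrc and Mt2. Ferroportin thus stood in the fourth place with FTY720 alone and in the eighth with LPS.

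The log2 fold changes of the genes with an IRE match are given here by the place of the element. Their direction in Ftl1 and Fth1 depended on the scaling. Of 17 alternatives, Ftl1 was called higher in 15 and Fth1 in 14. Each was called lower in 1, with the trend with expression removed. That setting reads a change against genes of like abundance. With TMM factors, of the 3 genes with an element in the 5′ UTR, Slc40a1 was lower (log2 fold change -1.94) and Ftl1 and Fth1 were higher (0.85 and 0.38). After removal of the trend with expression all 3 were called lower, Slc40a1 at -2.08, Ftl1 at -0.20 and Fth1 at -0.58. Tfrc, the only one of these genes with matches in the 3′ UTR, was called higher either way, at 1.52 with TMM factors and at 1.10 with the trend removed. RNA levels hold no measure of translation, which is where a 5′ element acts. Whether iron regulatory proteins had a part in these changes was not tested. The genes of the iron regulatory proteins themselves were measured too: Aco1 had 65 ± 11.1 CPM with LPS and 64.1 ± 6.72 CPM with FTY720 alone (log2 fold change 0.02 ± 0.14, adjusted p = 0.924, edgeR). Ireb2 had 204 ± 12 CPM with LPS and 152 ± 19.9 CPM with FTY720 alone (0.42 ± 0.12, adjusted p = 0.00531). Fbxl5, which targets these proteins for breakdown when iron is plentiful, had 47.7 ± 10.4 CPM with LPS and 64.5 ± 9.77 CPM with FTY720 alone (-0.43 ± 0.16, adjusted p = 0.0312). Aco1, Ireb2 and Fbxl5 were named for their role after their values had been seen, and were not followed through the alternative analyses.

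Of 67 genes on a wider list of iron and haem genes, 64 were in the count tables and 42 were tested, of which 12 were higher, 12 lower and 18 not called (57.1% called, median log2 fold change -0.08). Over all tested genes 46% were called, in nearly equal shares of 23.3% higher and 22.7% lower. The number lower was 2 with DESeq2 and 4 to 10 with 1 library left out. Bmp2, a ligand that in liver raises hepcidin, had the largest change, at 19.1 ± 3.93 CPM with LPS and 3.31 ± 1.18 CPM with FTY720 alone (2.53 ± 0.30, adjusted p = 2.81e-07, edgeR), and was called in 17 of 17 alternatives. Hamp itself, the hepcidin gene, had 1 read with LPS and 1 read with FTY720 alone.

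Alas1, the first enzyme of haem synthesis, was higher, with 94.1 ± 5.67 CPM with LPS and 47 ± 1.53 CPM with FTY720 alone (log2 fold change 1.00 ± 0.13, adjusted p = 1.03e-06, edgeR). Pcbp2, an iron chaperone and RNA-binding protein, had 145 ± 17.4 CPM with LPS and 74.3 ± 8.57 CPM with FTY720 alone (0.96 ± 0.13, adjusted p = 1.92e-06). Epas1, the hypoxia-inducible factor HIF-2 alpha, had 50.3 ± 2.22 CPM with LPS and 26 ± 2.63 CPM with FTY720 alone (0.96 ± 0.15, adjusted p = 2.35e-05). Each of these 3 calls was lost only with total library size alone, of 17 alternatives. Hp, or haptoglobin, which binds free haemoglobin, was sparse, with 38 reads with LPS and 28 reads with FTY720 alone (0.96 ± 0.36, adjusted p = 0.0345), and its call held in 5 of 15 alternatives.

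On the lower side, Lyrm4, a factor for building iron-sulfur clusters, had 12 reads with LPS and 73 reads with FTY720 alone (log2 fold change -2.01 ± 0.45, adjusted p = 0.00097, edgeR; called in 16 of 16 alternatives). Slc46a1, a carrier of folate and haem, had 34 reads with LPS and 100 reads with FTY720 alone (-1.04 ± 0.33, adjusted p = 0.014; 11 of 16 alternatives). Abcb10, a mitochondrial transporter linked to haem synthesis, had 36 reads with LPS and 102 reads with FTY720 alone (-0.96 ± 0.38, adjusted p = 0.0452), with overlapping groups and a call that held in 7 of 16 alternatives. All 3 were sparse genes.

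Further genes of iron and haem were picked from the list, on which 12 were higher and 12 lower, after their values had been seen. Hmox1, which breaks down haem and frees its iron, had 379 ± 7.19 CPM with LPS and 210 ± 25.2 CPM with FTY720 alone (log2 fold change 0.86 ± 0.11, adjusted p = 1.12e-06, edgeR). Trf, or transferrin, had 1230 ± 71.1 CPM with LPS and 880 ± 86.4 CPM with FTY720 alone (0.49 ± 0.10, adjusted p = 0.000625). Cp, or ceruloplasmin, the ferroxidase that assists ferroportin, had 41.7 ± 5.39 CPM with LPS and 24.4 ± 5.62 CPM with FTY720 alone (0.76 ± 0.18, adjusted p = 0.00155). With total library size alone, Bmp2 was the only gene of this list called higher. The calls of Hmox1, Trf and Cp were thus lost there. Hmox1 and Trf, at mean log2 CPM of 8.20 and 10.05, belong to the abundant genes, whose median log2 fold change was 0.73. Also picked, and called lower, were Slc25a37 at -0.86 (adjusted p = 0.00593, edgeR) and Mcoln1 at -0.48 (adjusted p = 0.0132, edgeR). Neo1 was lower at -0.41 (adjusted p = 0.0338, edgeR) and Hif1a at -0.35 (adjusted p = 0.0212, edgeR). The genes picked in this way were not followed singly through the alternative analyses. Among the enzymes of haem synthesis, Alas1 was called higher and 4 (Uros, Cpox, Ppox and Fech) were called lower; the number lower was 0 with DESeq2 and 1 after removal of the trend with expression.

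Of the wider zinc and copper list, 36 genes were in the count tables and 24 were tested, of which 10 were higher, 2 lower and 12 not called (50% called, median log2 fold change 0.37). The share called is near the 46% of all tested genes, of which 23.3% were higher and 22.7% lower. With total library size alone 0 were higher. Slc39a8, or ZIP8, a zinc importer that macrophages raise through NF-kappaB, had 31.5 ± 8.87 CPM with LPS and 16.5 ± 2.96 CPM with FTY720 alone (0.90 ± 0.21, adjusted p = 0.00141, edgeR). Slc39a6, another zinc importer, had 67.4 ± 3.47 CPM with LPS and 34.6 ± 4.88 CPM with FTY720 alone (0.97 ± 0.15, adjusted p = 9.87e-06). Slc39a3, an importer of the same family, was lower at 14.3 ± 1.8 CPM with LPS and 21.8 ± 1.29 CPM with FTY720 alone (-0.59 ± 0.20, adjusted p = 0.0184), a call that held in 10 of 17 alternatives. The importers Slc39a8 and Slc39a6 were called in 16 of 17 alternatives each.

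The copper genes on that list included Atp7a, a copper pump, with 200 ± 20.4 CPM with LPS and 111 ± 7.99 CPM with FTY720 alone (log2 fold change 0.85 ± 0.12, adjusted p = 3.14e-06, edgeR). Atox1, the chaperone that hands it copper, had 116 ± 8.42 CPM with LPS and 61.9 ± 4.34 CPM with FTY720 alone (0.91 ± 0.12, adjusted p = 2.63e-06). Slc31a1, the copper importer, had 131 ± 4.56 CPM with LPS and 90.6 ± 15.9 CPM with FTY720 alone (0.52 ± 0.13, adjusted p = 0.00227). The calls of these 3 genes, which were named because they were called, held in 15 to 16 of 17 alternatives. On the same list Slc31a2, a relative of Slc31a1 named after its values had been seen, was not called (0.13, adjusted p = 0.56), and the copper pump gene Atp7b had too few reads to be tested. Ccs, the copper chaperone of superoxide dismutase, had 42 reads with LPS and 107 reads with FTY720 alone (-0.82 ± 0.30, adjusted p = 0.0297; 10 of 17 alternatives). S100a8, a subunit of the zinc-binding protein calprotectin, had 32 reads with LPS and 21 reads with FTY720 alone (1.15 ± 0.45, adjusted p = 0.0418, edgeR). Its call held in 6 of 16 alternatives. The FTY720 libraries had 4, 2 and 15 S100a8 reads. Its log2 fold change was 0.83 without FTY720 replicate 2 and 2.13 without FTY720 replicate 3, so its size rested largely on a single library. S100a9, the partner of S100a8, had 0 reads in all 6 libraries. Mtf1, the zinc sensor that drives metallothionein transcription, did not pass the test (0.37 ± 0.18, adjusted p = 0.0877); Mtf1 and S100a9 were named after their values had been seen.

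**Figure D4:**
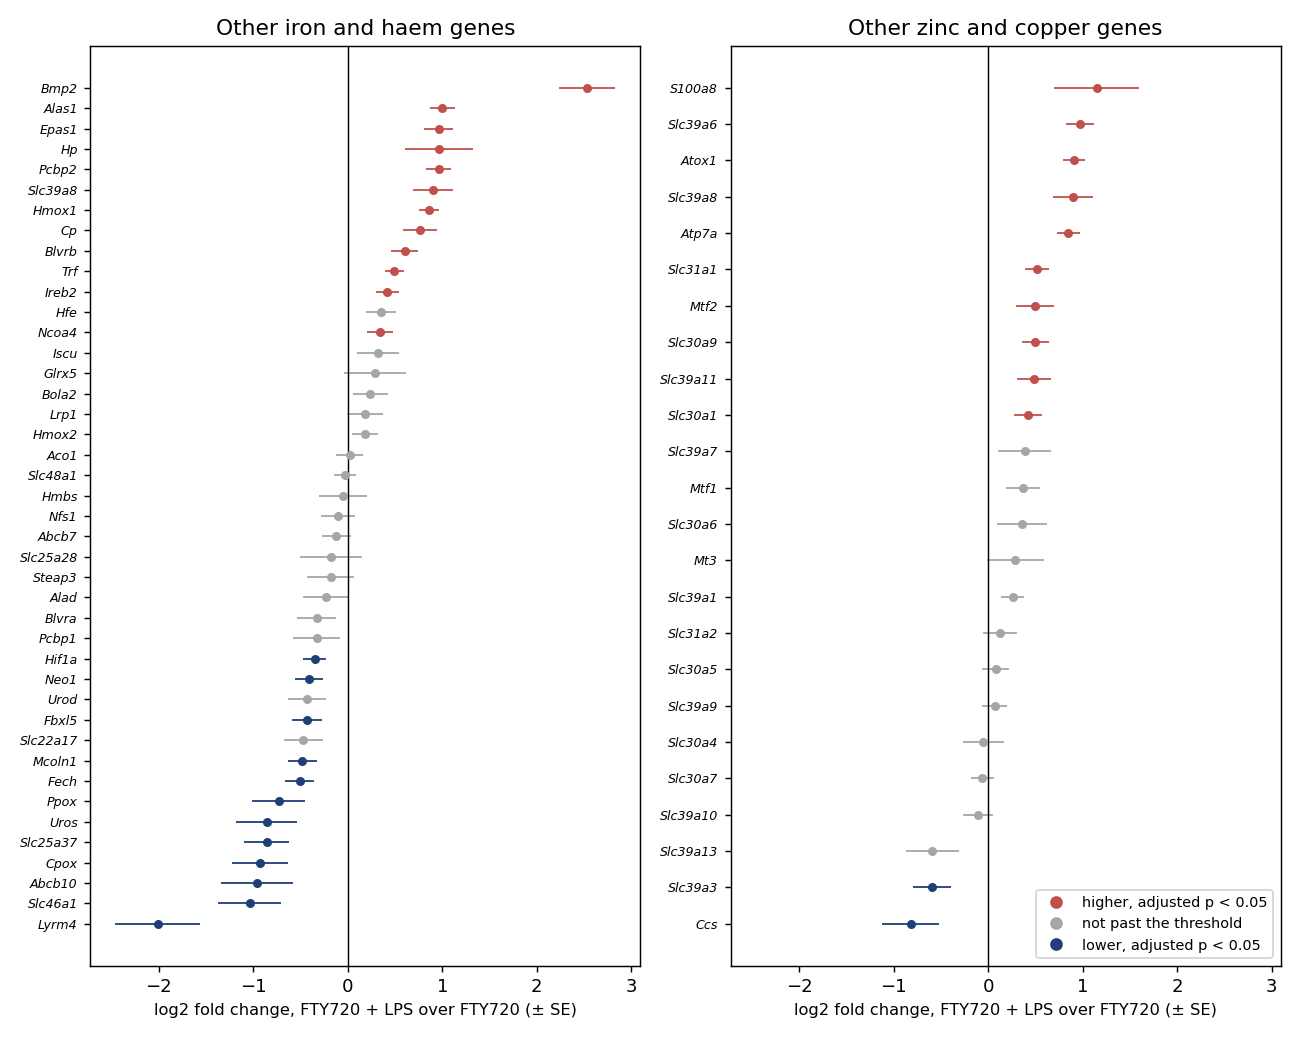
Log2 fold change (FTY720 + LPS over FTY720, ± SE) of the tested genes of the wider iron list (left, 42 genes) and the wider zinc and copper list (right, 24 genes), sorted by value; red is called higher, blue called lower and grey not called (adjusted p under 0.05, edgeR, TMM factors). The iron genes spread to both sides with 12 higher and 12 lower, and the zinc and copper genes lie mostly to the right with 10 higher and 2 lower.

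The genes whose levels over the 6 libraries were most like those of Slc40a1, by the root mean square difference of centred log2 CPM, were Fli1 (0.09), P2rx7 (0.14) and Tlr4 (0.14). Nearest to Tfrc were Alcam (0.05), G3bp1 (0.05) and Gtf2b (0.06), and nearest to Ftl1 were Tmbim6 (0.03), Hyou1 (0.03) and Tollip (0.04). With 2 groups of 3 libraries, likeness mostly means a like fold change.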

How the data were processed

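RNA-seq counts of 6 libraries of primary mouse microglia were analysed. The authors deposited raw read counts per gene for each library, in the layout of STAR's gene counts, with 1 column for both strands together and 1 for each strand. STAR 2.5.1, Trimmomatic 0.33, CASAVA 1.8.2, the build mm10 and DESeq2 are listed in the submitters' processing notes; the annotation and settings are not stated there. STAR's gene counts hold only reads with a unique alignment. The strand with 98.4% to 98.9% of gene reads was used as sense. Rows naming no gene (unmapped 24.4% to 27%, multimapping 7.69% to 8.15%, outside genes 42.2% to 44.5%, ambiguous 0.0748% to 0.114% of reads) were left out.

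Counts were tested with edgeR 4.0.16 (R 4.3.3, quasi-likelihood test, TMM factors, filterByExpr with a minimum count of 10), which kept 10124 of 24411 genes, with Benjamini-Hochberg adjustment over these and a threshold of 0.05. SE is the absolute log2 fold change over the square root of F. CPM values carry the TMM factors; log2 CPM used a prior count of 2. Every pair of replicates differed by more than sampling noise. Counting intervals (exact Poisson-based for ratios, Clopper-Pearson for shares, 95%) and floors of 3 reads cover counting error only. Alternatives were DESeq2 1.42.0, other scalings, filters and strands, cyclic loess with limma 3.58.1, length and GC offsets, left-out or summed replicates and a replicate block. The fitting code was checked on simulated counts. Positions, lengths and sequences came from GENCODE M21 (GRCm38, also called mm10), which held 96.7% of tested genes.

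The genes and lists were chosen with earlier results of these data known. Named were all 10 genes and, from each wider list, the 8 called genes of largest change with mean log2 CPM of at least 1; others are said to be chosen later. Likeness was sought for the 3 called genes of largest change.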

Additional observations from a re-analysis of the deposited data

How the results depend on the processing

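Tfrc and Slc40a1 kept their direction and call in 17 of 17 alternatives. Of the 9 tested genes, 5 were higher and 1 lower in the main analysis. With total library size alone 1 was higher; with length and GC trends removed 3 were higher; without the expression trend, 3 were higher and 4 lower. With 1 library left out 4 to 5 were higher and 1 was lower. The expression trend turned Fth1 to -0.58 and Ftl1 to -0.20. Values not past the threshold turned sign in Slc11a2 (-0.23 to 0.01 with 1 library left out, 0.00 without FTY720 + LPS replicate 3, 0.01 without FTY720 replicate 1), in Slc39a14 (-0.13 to 0.39 with 1 library left out, -0.13 with total library size alone, -0.07 without FTY720 + LPS replicate 1, -0.13 without FTY720 replicate 3) and in Mt1 (-0.07 with upper-quartile factors, -0.27 with total library size alone, -0.07 with the expression trend removed, -0.10 with length and GC trends removed). Over all genes, 766 were higher with total library size alone, against 2362, and 1274 lower with DESeq2, against 2297. On the wider iron list 1 was higher with total library size alone, and the number lower was 2 with DESeq2, 6 with replicates 1 and 2 summed and 4 to 10 with 1 library left out. On the wider zinc list the number higher was 6 with DESeq2, 6 with upper-quartile factors, 0 with total library size alone and 5 with replicates summed; the number lower was 0 with DESeq2, 1 with the expression trend removed, 1 with length and GC trends removed, 0 with replicates summed and 0 to 2 with 1 library left out. The cause of these shifts was not tested, except that leaving out or summing libraries leaves fewer samples. Same-numbered libraries did not deviate together (r of -0.02, -0.03 and -0.07), so the numbers were not taken as pairs; with a replicate block 5 of the 9 genes were higher and 1 lower, and 11 iron genes were higher and 8 lower. Low read numbers limit Lcn2, Slc39a14 and Mt2.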
